A study of Mus musculus with 12 samples.

Results

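The window on mouse chromosome 13 between 42.13 and 42.45 Mb (mm9), around the genes Hivep1 and Edn1, held 40 of the 115231 regions of accessible chromatin found in macrophages. Every peak of the 12 deposited ATAC-seq peak lists inside it was taken, 319 of 886143 in all, and peaks that overlapped by at least 1 bp were chained into regions, numbered 1 to 40 along the window. The window was picked because it is among those with the most regions gained by 6 h of lipopolysaccharide (LPS), so that gain is described here and not tested. ATAC-seq marks open DNA by where the Tn5 transposase inserts sequencing adapters. LPS is a component of the outer membrane of Gram-negative bacteria.

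The macrophages were grown from bone marrow of female C57BL/6 mice, either lincRNA-EPS knockout (KO) or wild type (WT), for 9 days with a 20% L929 supplement, which supplies macrophage growth factor. LPS was given at 100 ng/ml for 0, 2 or 6 h, and 50000 cells went into each reaction. Each of the 6 groups, KO and WT at each time, had 2 libraries. Whether the pair of a group stems from different mice or cultures is not in the labels. The p-values thus reflect library-to-library spread, which may be purely technical. Peak names inside the lists of the 4 libraries labelled 2 h give 1 h, so the middle time may be 1 h. The libraries held 54771 to 91610 peaks and had a background coverage of 1.43 to 3.35 reads, lowest in KO replicate 2 at 0 h.

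Hivep1 encodes a large zinc-finger transcription factor that binds κB-like DNA motifs and is related to Drosophila Schnurri. Edn1 encodes the precursor of endothelin-1, a peptide that constricts blood vessels through G protein-coupled receptors, and macrophages are among its known sources in humans. LPS acts through Toll-like receptor 4 to activate transcription factors of the NF-κB, AP-1 and interferon regulatory families, which open enhancers in macrophages. lincRNA-EPS is a long noncoding RNA that the study's title describes as a brake on inflammation.

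In the RefSeq annotation of GRCm38.p6 the genes follow one another in the order Gm28707, Hivep1, Gm32778, Edn1 and Gm32833, of which the 3 Gm genes are long noncoding RNAs. The peaks are in mm9, an earlier build, and coordinates were not converted. Which region lies at a gene's start was therefore not placed, and no region is assigned to a gene. The 250 bases before the RefSeq start of each protein-coding gene are printed, on the plus strand, because they are the promoters the window is named for. Capitals mark the κB consensus in Hivep1 and, on the minus strand, a motif of the interferon-stimulated response element (ISRE) type in Edn1.
Hivep1, chr13:42051771-42052020 (GRCm38.p6): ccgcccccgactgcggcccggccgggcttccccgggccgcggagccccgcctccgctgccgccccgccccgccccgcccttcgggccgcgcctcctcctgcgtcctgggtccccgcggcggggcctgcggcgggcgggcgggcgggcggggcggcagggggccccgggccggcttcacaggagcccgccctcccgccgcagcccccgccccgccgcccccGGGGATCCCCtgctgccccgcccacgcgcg
Edn1, chr13:42301226-42301475 (GRCm38.p6): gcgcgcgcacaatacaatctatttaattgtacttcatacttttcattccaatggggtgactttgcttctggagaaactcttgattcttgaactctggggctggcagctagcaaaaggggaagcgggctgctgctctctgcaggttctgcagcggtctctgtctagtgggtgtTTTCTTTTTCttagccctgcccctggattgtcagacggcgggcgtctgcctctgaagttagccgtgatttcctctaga
The Hivep1 sequence is 88.4% G and C and holds 41 CpG dinucleotides, while the Edn1 sequence is 50.4% G and C and holds 9. The medians over 32851 RefSeq promoters were 52.4% and 6. Both strands were searched for 5 motifs. The κB consensus occurs in 7.25% of all those promoters, a share not matched to the G and C content of the Hivep1 sequence. The ISRE-type motif, a pair of GAAA units with 2 bases between them, occurs in 2.98%. The AP-1 motif TGANTCA, present in 6.75% of promoters, was found in neither sequence. Neither held the GATA factor motif AGATAAG, present in 2.74%. Neither held the PU.1 motif GAGGAAGT, present in 2.44%. The κB match in Hivep1 begins 30 bases before the start and reads the same on both strands, so it matches on each strand. The match in Edn1 begins 78 bases before the start. A match describes the letters and says nothing of binding.

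More of the locus was called as open at 6 h of LPS in both genotypes. Of the 40 regions, 9 (22.5%) were gained by 6 h, that is, had a peak in every 6 h library and in 0 of the 4 at 0 h. Over the genome 5.54% of regions met this definition, and since the window was chosen for it, nothing is read from the excess. No region of the locus was gained by 2 h, against 0.789% of all regions. None was lost by 6 h, against 0.127% of all regions, and none was lost by 2 h, against 0.00434%. Another 14 regions (35.0%) were called in all 12 libraries, close to the 37.2% of the genome. Of the other 17 regions, 3 were called in 1 library and 14 in 2 to 11 libraries.

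The number of called regions at 0 h was 22 and 17 in KO libraries and 20 and 22 in WT libraries. At 2 h it was 20 and 23 in KO and 22 and 20 in WT, and at 6 h it was 36 and 31 in KO and 31 and 32 in WT. All 4 libraries at 6 h stood above all 8 earlier libraries, while those at 0 and 2 h overlapped. The means were 20.25 ± 2.36 at 0 h, 21.25 ± 1.5 at 2 h and 32.5 ± 2.38 at 6 h (SD, n = 4). Peaks covered 10.8 ± 1.7 kb of the window at 0 h, 12.4 ± 1.14 kb at 2 h and 17.3 ± 1.59 kb at 6 h (SD, n = 4). Libraries at 6 h also held more peaks genome-wide. Per 1000 peaks of its own list, a library called 0.298 to 0.336 regions of the window at 0 h, 0.275 to 0.309 at 2 h and 0.376 to 0.394 at 6 h. The window was chosen for its gains by 6 h, so this order follows from that choice.

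**Figure D1:**
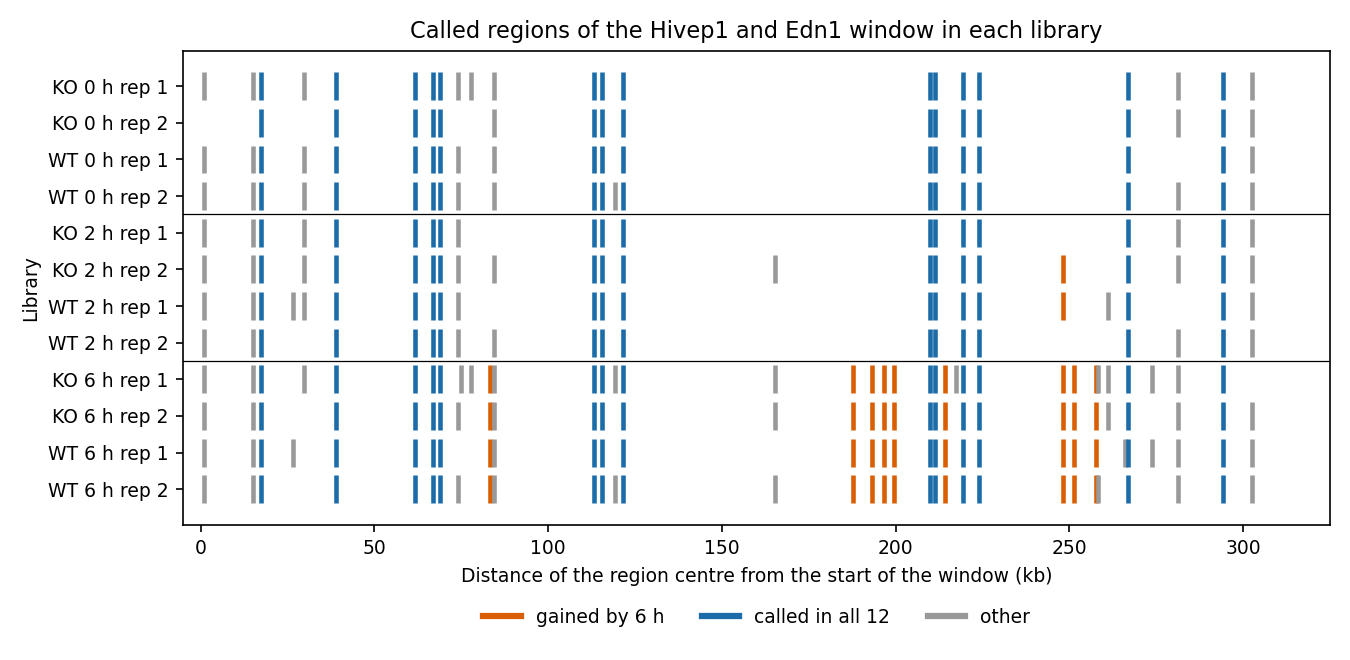
Called regions along the window in each library. The horizontal axis is the distance of a region's centre from the start of the window in kb, each row is a library, and colour gives the class of the region. Most orange marks, the regions gained by 6 h, fall from 187 kb onwards in all 4 libraries at 6 h, and 1 of them is also marked in 2 libraries at 2 h.

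**Figure D2:**
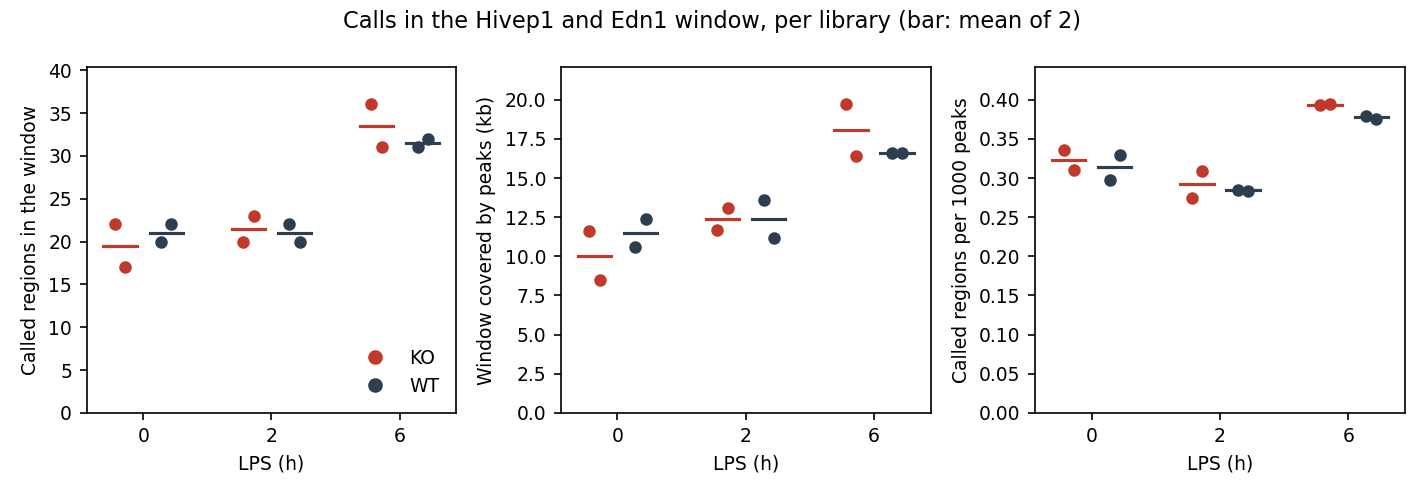
Called regions and covered kb of the window in each library by hours of LPS, with KO left of WT at each time, points for libraries and bars for the mean of 2. The 4 libraries at 6 h call 31 to 36 regions, above the 17 to 23 of the other 8.

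The gained regions lay in 2 runs and 1 place apart. The first run held 5 of them, regions 20, 21, 22, 23 and 26, over 27 kb from 42317421 to 42344442, and 2 regions called in all 12 libraries, 24 and 25, lay inside it. The second run held 3, regions 30, 31 and 32, over 10 kb from 42377809 to 42387840. Region 13 (42213184 to 42213535) stood 105 kb before the first run, summit to summit. Neighbouring summits within a run were 3.09 to 14.6 kb apart. The gained regions were 352 to 811 bp wide with a median of 496 bp, next to 486 bp for all gained regions of the genome. Regions called in all 12 libraries had a median width of 778 bp here and 775 bp in the genome.

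For each peak the deposited lists give the authors' fold of summit over local background and a −log10 q. Both describe a peak within its own list and depend on depth, so they are set side by side for each region with no genotype comparison. The percentile used below is the rank of a peak's −log10 q within its own library. The gained regions were mid-to-low-ranking peaks. Their mean percentile at 6 h ran from 18.7 to 48.6 with a median of 32.5, and the median for gained regions of the genome was 35.5. Their mean fold ran from 2.93 to 7.19 with a median of 5.43, next to 5.44 in the genome. Recovered summit coverage was 14 to 71 reads.

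Region 20 (42317421 to 42318231), the widest, began the first run. Its fold at 6 h was 5.98 and 7.51 in KO libraries and 6.81 and 8.43 in WT libraries. The mean of 7.19 ± 1.04 (SD, n = 4) was the highest of the 9. Region 21 (42323089 to 42323607) had the most even values, with folds of 6.18 and 6.19 in KO and 6.45 and 6.68 in WT. Region 22 (42326408 to 42326899) had folds of 5.14 and 4.67 in KO and 4.21 and 5.13 in WT, and region 22 was weaker than its neighbours on both sides in all 4 libraries. Region 23 (42329358 to 42330032) had folds of 6.07 and 5.87 in KO and 6.25 and 7.59 in WT.

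Region 26 (42344089 to 42344442), at the far end of this run, had the lowest fold of the gained regions and the most summit reads. Its fold at 6 h was 2.95 and 2.88 in KO and 2.63 and 3.24 in WT, over summits of 71 and 49 reads in KO and 46 and 60 reads in WT. Its −log10 q was 13.1 and 8.60 in KO and 6.83 and 12.8 in WT, inside the range of the other gained regions, 4.92 to 20.3. Its local background was 6.32 to 8.17 times that of the library in the 4 libraries, so the low fold went with a high local background rather than with few reads.

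Region 30 (42377809 to 42378451), first of the second run, was the only gained region called at 2 h. At 6 h its fold was 6.04 and 6.45 in KO and 8.65 and 7.31 in WT. At 2 h it was called in KO replicate 2 with a fold of 4.45 and in WT replicate 1 with a fold of 3.97. The −log10 q of region 30 was 14.8 and 12.2 in KO and 20.3 and 14.3 in WT at 6 h, against 6.32 in the KO library and 4.90 in the WT library that called it at 2 h. The peak was thus weaker within its list at 2 h on both measures. The other 8 gained regions had no call at 2 h. They made up 20.0% of the 40 regions of the window, and 2.91% of all regions of the genome had that pattern. Of the 6389 gained regions of the genome, 3349 had no call at 2 h. Since the window was chosen for gains by 6 h, nothing is read from these shares.

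Region 31 (42381196 to 42381593) had folds of 7.12 and 4.92 in KO and 5.0 and 4.70 in WT, with KO replicate 1, the deepest library, standing above the rest. Region 32 (42387345 to 42387840) had folds of 5.42 and 4.14 in KO and 5.18 and 4.66 in WT. Region 13, outside the runs, had folds of 3.88 and 4.52 in KO and 4.93 and 6.44 in WT. Regions 13 and 32 had the lowest mean percentiles of the 9, 21.8 and 18.7. Both lost a call in 1 library at 6 h once coverage was thinned to match the shallowest library, which left 7 of the 9 gained. When each library was cut to its 54771 strongest peaks, 3 of the 9 stayed gained, namely regions 21, 23 and 30.

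**Figure D3:**
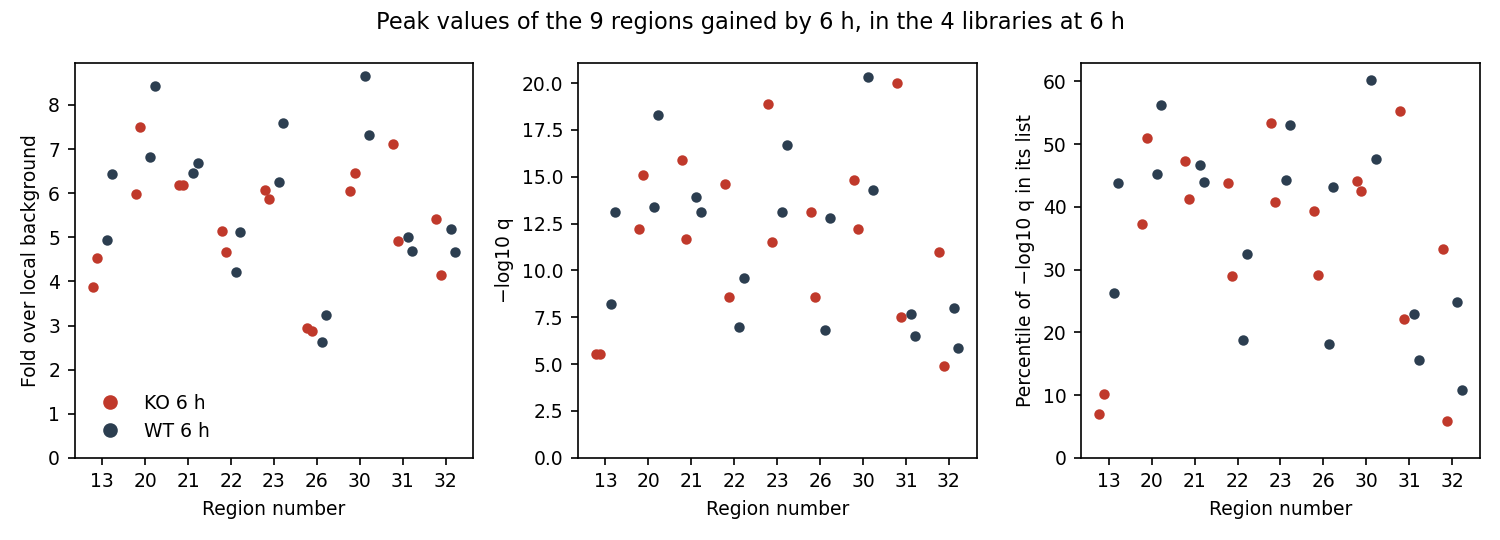
Fold of summit over local background and −log10 q of the 9 gained regions in the 4 libraries at 6 h, KO left of WT. Region 26 has the lowest folds, 2.63 to 3.24, with −log10 q values among those of the other regions.

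Region 19 (42295145 to 42295613) fell just outside the definition. No library called it at 0 h, KO replicate 2 did at 2 h, and both KO libraries and WT replicate 2 did at 6 h. Its folds at 6 h were 4.37 and 4.10 in KO and 4.71 in the WT library that called it, below those of most gained regions. A further 7 regions with no call at 0 h had a call in 1 or 2 libraries at 6 h. Region 14 (42214237 to 42214850), next to the gained region 13, had a peak in every library at 0 h, in 2 of 4 at 2 h and again in every library at 6 h. Its fold was 7.91 and 5.67 in KO and 7.18 and 6.59 in WT at 6 h, against 4.33 and 5.77 in KO and 5.07 and 5.13 in WT at 0 h, and the times overlapped.

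Because a call depends on a threshold, the 14 regions called in all 12 libraries were also compared by coverage. Summit reads, recovered from the deposited fold and p-value, were divided by the library's background coverage. That ratio was higher in all 4 libraries at 6 h than in all 4 at 0 h for 2 of the 14 regions, 24 and 36, where 9.61% of such regions in the genome met this. It was lower at 6 h for 0 of 14, where 10.6% of the genome's did. At 2 h it was higher for 0 (genome 2.09%) and lower for 0 (genome 2.36%). Without WT replicate 1 at 6 h the number higher at 6 h was 5, though leaving out a library could not lower it. With the library's median summit as the scale 3 regions were higher at 6 h, namely 24, 29 and 36. On that scale 3 were lower at 6 h, namely 9, 16 and 39. These shares are descriptions, since the window was chosen on 6 h against 0 h.

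Region 24 (42339463 to 42340409) had the largest 6 h to 0 h ratio of the 14. Its summit held 52 and 45 reads in KO and 49 and 57 in WT at 0 h, 56 and 84 in KO and 67 and 61 in WT at 2 h, and 151 and 118 in KO and 117 and 128 in WT at 6 h. The values at 6 h stood apart from all 8 earlier ones, with KO and WT overlapping. Over library background the summit averaged 50.5 ± 7.18 at 6 h, against 26.1 ± 5.14 at 0 h (SD, n = 4), a ratio of 1.93, and it averaged 24.0 ± 3.53 at 2 h. Of the 42811 regions called in all 12 libraries, 871 (2.03%) had a ratio as high, and their median ratio was 0.953. The authors' fold does not show it. That fold was 6.39 and 6.82 in KO and 6.59 and 6.88 in WT at 6 h, against 6.54 and 6.39 in KO and 5.36 and 6.28 in WT at 0 h.

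The local background, by which the fold divides, was higher too. At region 24 the local background over that of the library averaged 7.21 ± 0.799 at 6 h, against 3.79 ± 0.474 at 0 h (SD, n = 4), a ratio of 1.90 that 1.45% of regions called in all 12 libraries matched. At the adjoining region 25 (42340954 to 42341764) the same measure was 7.15 ± 0.804 at 6 h and 3.79 ± 0.481 at 0 h, a ratio of 1.89. Local background is taken over a stretch around a summit in the same library, so it may include the region's own reads. Close neighbours such as 24 and 25, or 28 and 29, share reads in this measure and are not independent. At region 25 the fold was lower at 6 h, 5.96 and 5.87 in KO and 5.31 and 5.29 in WT, against 7.60 and 7.80 in KO and 9.52 and 7.90 in WT at 0 h. Its summit over library background was nevertheless 41.8 ± 4.88 at 6 h and 34.7 ± 4.32 at 0 h, ranges that overlapped.

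Local background was higher in all libraries at 6 h than in all at 0 h at 5 of the 14 regions, numbers 24, 25, 28, 29 and 36, where 19% of the genome's regions met this. It was lower at 0 of 14 (genome 9.12%). All 5 lie in the part of the window from 42339463 to 42397203, which also holds 4 of the 9 gained regions. The borders of that stretch are those of the outermost of the 5. At 2 h it was higher than at 0 h at region 36 alone (genome 4.23%) and lower at none (genome 1.33%). At regions 28 (42349141 to 42349787) and 29 (42353502 to 42354460) the ratio of 6 h to 0 h was 1.44 at each, against a genome median of 1.02. These values are descriptions, since the window was chosen on the same 6 h and 0 h libraries. Reads of a gained region may also enter the local background of a close neighbour.

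Region 36 (42396508 to 42397203) varied little between libraries of a time. Its summit over library background was 24.2 and 24.9 in KO and 25.1 and 24.7 in WT at 6 h, against 19.8 and 18.9 in KO and 20.4 and 17.2 in WT at 0 h. The 6 h values did not overlap those at 0 h, and the means were 24.7 ± 0.372 at 6 h, against 19.1 ± 1.41 at 0 h (SD, n = 4), a ratio of 1.30. At 2 h the mean was 21.4 ± 1.24, between the others. Local background at region 36 was 2.64 ± 0.178 at 6 h and 1.72 ± 0.106 at 0 h, a ratio of 1.53.

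**Figure D4:**
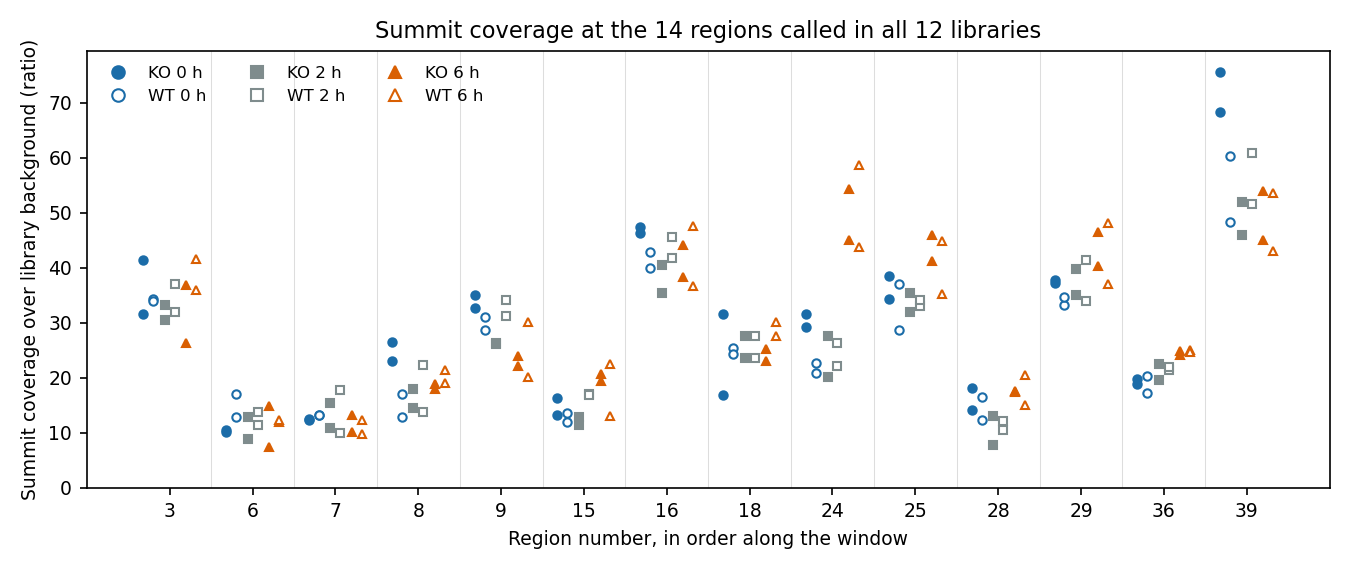
Summit coverage over the library's background coverage at the 14 regions called in all 12 libraries, by region number, with times left to right within a region and KO left of WT. Region 24 at 6 h, 43.8 to 58.7, lies above its values at 0 h, 20.8 to 31.6, and region 39 has the highest values at 0 h.

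**Figure D5:**
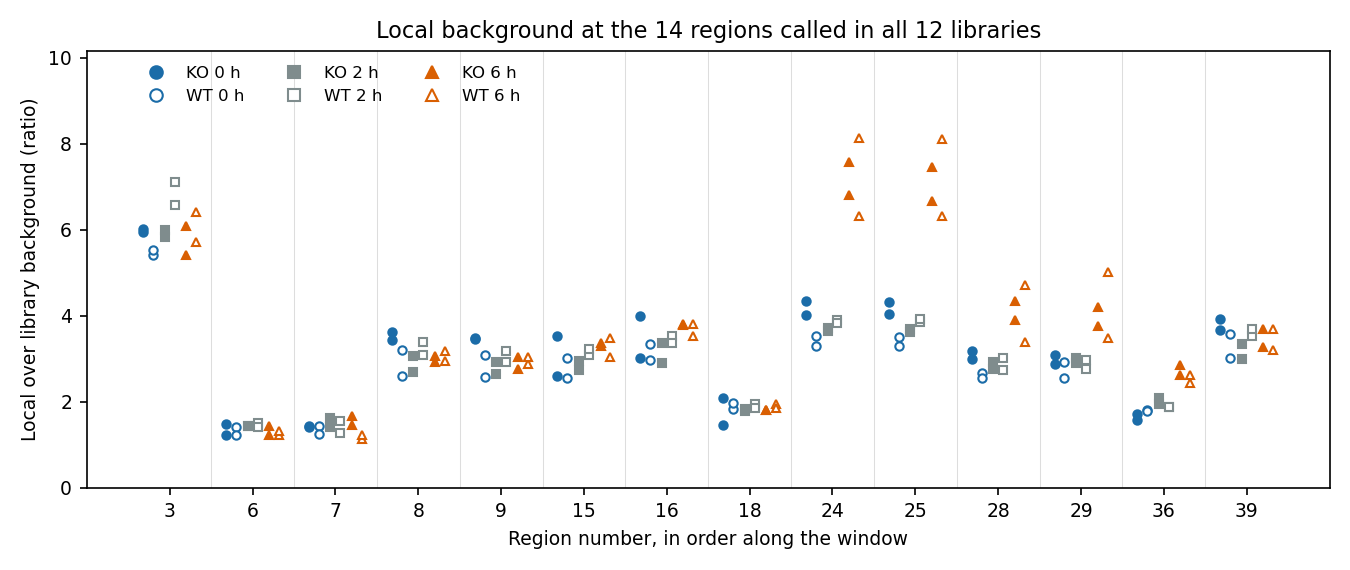
Local background over library background at the same 14 regions, with times left to right within a region and KO left of WT. The triangles for 6 h lie above the circles for 0 h at regions 24, 25, 28, 29 and 36, and overlap them at the other 9.

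Ranked by mean percentile over the 12 libraries, the strongest regions were 39, 16, 29, 25 and 18, all called in every library. Region 39 (42423776 to 42424934) ranked at a mean percentile of 99.2, with a mean fold of 14.1. Its fold was 15.6 ± 1.37 at 0 h, 14.1 ± 0.578 at 2 h and 12.7 ± 0.446 at 6 h (SD, n = 4). Over library background the summit of region 39 was 48.9 ± 5.63 at 6 h and 63.2 ± 11.7 at 0 h, and these overlapped. Both KO libraries at 0 h, at 68.3 and 75.7, stood above the WT libraries, at 60.4 and 48.3. Over the library's median summit the times did not overlap, with region 39 at 2.09 to 2.39 at 6 h and 2.42 to 3.27 at 0 h. Region 16 (42245123 to 42245867) averaged the percentile 94.5, with folds of 11.6 ± 0.886 at 0 h, 11.3 ± 0.575 at 2 h and 10.2 ± 0.897 at 6 h. Region 29 had a mean percentile of 91.9, region 25 one of 83.0, and region 18 (42251213 to 42251794) one of 82.7. Region 18 ranked 75.6 ± 15.0 at 0 h, 84.6 ± 4.23 at 2 h and 87.9 ± 2.88 at 6 h, and the spread at 0 h came with a lowest value of 53.2. The order was not the same at each time. Region 24 ranked 63.7 ± 5.55 at 0 h, 65.6 ± 9.09 at 2 h and 92.0 ± 1.15 at 6 h, above regions 18 and 25 at 6 h. Over the 14 regions the median percentile was 73.6 and the median fold 7.21, next to 68.5 and 7.94 in the genome.

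The genotype comparison asks whether loss of lincRNA-EPS altered the accessible regions of the locus. KO libraries called 24.83 ± 7.19 regions and WT libraries 24.5 ± 5.5 (SD, n = 6 libraries over 3 times), a difference of 0.333. A two-sided exact permutation test of genotype within time gave p = 0.907 (adjusted p = 1.0 over the 2 measures), where the smallest p possible was 0.00926. Peaks covered 13490 ± 4000 bp in KO and 13490 ± 2600 bp in WT, a difference of -3.83 bp, with an exact permutation p of 1.0. That value near 0 averages differences of opposite sign. KO libraries covered 11.6 and 8.46 kb at 0 h, against 10.6 and 12.4 kb in WT. They covered 11.7 and 13.1 kb at 2 h, against 13.6 and 11.2 kb in WT, and 19.7 and 16.4 kb at 6 h, against 16.6 kb in each WT library. The genotypes overlapped at all 3 times, and 2 libraries against 2 have no test within a time. The 9 gained regions, for which the window was chosen, are called alike in KO and WT at 0 and 6 h by definition. That choice favours likeness of the genotypes, so a high p here does not show that the locus was unaltered.

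By presence of a call, 1 of 40 regions separated the genotypes within a time. Region 34 (42391127 to 42391404) was called at 6 h in both KO libraries, with folds of 3.85 and 4.39, and in neither WT library, against 1.91% of all regions with that pattern. It was also called in WT replicate 1 at 2 h, with a fold of 3.97, so it was not a KO peak throughout. No region was called only in WT at 6 h (genome 1.2%), only in KO at 0 h (0.505%) or 2 h (1.22%), or only in WT at 0 h (2.45%) or 2 h (1.34%). With 2 libraries against 2 these counts have no test.

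By summit coverage over library background, more of the 14 regions called in all 12 libraries separated the genotypes, as did many such regions of the genome. At 0 h both KO libraries were above both WT libraries at 6 of 14 (genome 49.3%) and below them at 2 (genome 4.18%). The 6 were regions 8, 9, 16, 24, 29 and 39. Region 24 had ratios of 29.3 and 31.6 in KO and 20.8 and 22.7 in WT at 0 h. Background coverage at 0 h, the divisor, was 1.77 and 1.43 reads in KO and 2.35 and 2.51 in WT, and its part in these differences was not tested. At 2 h KO was above WT at 0 of 14 (genome 3.96%) and below at 3 (genome 42.7%), and at 6 h above at 0 (genome 7.58%) and below at 2 (genome 18.3%). Divided by the library's median summit instead, KO was above WT at 3 of 14 at 0 h (genome 21.2%), among them region 24, at 3 at 2 h (genome 19.9%) and at 1 at 6 h (genome 14.7%). On that scale it was below WT at 3 at 0 h (genome 16%), at 2 at 2 h (genome 15.3%) and at 2 at 6 h (genome 20.5%).

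Each of the 9 gained regions is by definition also gained within KO and within WT. In KO 11 regions had a peak in both libraries at 6 h and in neither at 0 h (genome 12.5%), and in WT 9 did (genome 9.89%). The 2 further regions of KO were 19 and 34. Region 5 (42159249 to 42160045) was lost by 6 h in WT (genome 1.46%), with a call in neither WT library at 6 h, against both at 0 h. In KO 1 of 2 libraries called it at each of these times, and 0 regions were lost in KO (genome 0.499%). Region 5 was also 1 of 4 regions, with 1, 2 and 10, that the other 3 libraries at 0 h called and KO replicate 2, the shallowest, did not.

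The genome was cut into windows of 320 kb, of which 6221 held a region and did not overlap the locus. Across these the median number of gained regions was 1, the highest 11, and 3 windows held at least 9. The windows whose number of called regions over the 12 libraries was most like that of the locus were on chromosome 7 from 120000001 to 120320000 (Pearson r = 0.984), on chromosome 7 from 137920001 to 138240000 (r = 0.984) and on chromosome 10 from 36800001 to 37120000 (r = 0.981). They held 24, 27 and 40 regions, of which 3, 4 and 6 were gained by 6 h. All windows share the depth of the same libraries, and the median r over the 2728 windows compared was 0.747. The nearest regions outside the locus lay 18.54 kb before it (42110843 to 42111463), called in 4, 4 and 1 of 4 libraries at 0, 2 and 6 h, and 8.42 kb after it (42458421 to 42459063), called in all 12.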

How the data were processed

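The 12 libraries were grouped by the labels. The submitters' processing notes name Bowtie2 2.1.0, Picard, MACS2 and the build mm9. Their settings, the handling of duplicates and any shift for the Tn5 offset were not given in the sources used here. Duplicates kept in would raise peak values, and an offset moves borders by a few bases. The deposited lists, called on each library alone as the peak names show, hold per peak a fold ratio over local background, a −log10 p-value and q-value, and a score of 10 times the −log10 q. The lowest −log10 q in any list was 2.11.

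Peaks were chained where they overlapped by 1 bp. Summit coverage and local background, in reads, were solved from the authors' fold and p-value; the recomputed log10 p differed by at most 0.001 from the deposited one in 100% of peaks. A library's background coverage is its lowest local background, which reflects depth and not enrichment. Presence in a list carries no counting interval, and at low depth an open region can miss the calling threshold.

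Genotypes were compared by an exact permutation test over libraries within time, tested on simulated data. The named regions are all gained ones, those that separate genotypes, and the 5 strongest called in all 12 libraries. Regions 5, 8, 9, 14, 19, 24, 28 and 36 were chosen after their values were seen. The window, its members and the rules were chosen with earlier results of these data known. Alternatives were thinning to the lowest background coverage with a −log10 p of at least 4.28, 54771 peaks per library, a −log10 q of at least 5, chaining at 50% overlap, regions per 1000 peaks, a replicate block and leaving out each library. Same-numbered KO and WT libraries did not deviate together (correlations 0.005, 0.003 and -0.027 at 0, 2 and 6 h over 42811 regions). Cell type markers were not checked, since mm9 annotation was not used here. Python 3.11.15, numpy 2.4.6, pandas 2.3.3, scipy 1.17.1, statsmodels 0.14.6 and matplotlib 3.10.9 were used.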

Additional observations from a re-analysis of the deposited data

How the results depend on the processing

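The 9 regions gained by 6 h became 7 in thinned lists, 8 at the stricter q, 9 under chaining at 50% overlap and 3 when every list was cut to the same length. Leaving out each library at 0 or 6 h gave 9 to 10, with 10 without WT 6 h replicate 1. A library left out only loosens the definition, so this count could not fall below 9. Regions gained by 2 h or lost by 6 h stayed at 0 under each of these. The genotype difference in called regions (0.333) had no settled sign: it was -0.167 in thinned lists, -0.333 with lists of equal length, -0.333 at the stricter q and -0.5 to 1.17 with 1 library left out (exact permutation p of 0.194 to 1.0 over 18 alternatives). The difference in covered bases (-3.83 bp) ran from -549 to 541 bp with 1 library left out (exact permutation p of 0.454 to 1.0 over 16 alternatives). With the replicate number as a block the differences were unchanged at 0.333 (exact permutation p = 0.938) and -3.83 bp (exact permutation p = 1.0). Pairing of libraries by number was not seen, though a weak one could be missed. Alternatives for summit coverage were chosen after seeing the data. The 2 regions higher at 6 h were 3 over the library median and 2 to 5 with 1 library left out, with 5 without WT 6 h replicate 1. Leaving out a library could not lower this count or that of regions lower at 6 h. The 0 regions lower at 6 h were 3 over the library median and 0 to 2 with 1 library left out, which was 2 without WT 0 h replicate 2, and 1 when either KO 6 h replicate 1 or WT 6 h replicate 2 was left out. Over the library median, regions with both KO above both WT libraries numbered 3 in place of 6 at 0 h, 3 in place of 0 at 2 h and 1 in place of 0 at 6 h. The causes were not tested. Background coverage was lowest in the 2 KO libraries at 0 h, and what depth did to their calls was tested by thinning alone.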
